A study of Mus musculus with 14 samples.

Results

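The genes described here serve fatty acid oxidation, ketone body metabolism and the PPAR nuclear receptors in mouse small intestinal organoids. The set holds 35 genes, chosen by symbol for their known functions, and all 35 have a row among the 18781 genes of the deposited expression table. Of these, 34 had a mean of at least 10 on the linear scale over the 14 libraries and were tested among 12802 such genes. Cyp4a10, a fatty acid omega-hydroxylase and a classical PPARα target of the liver, lay below that limit and is given by its values only. The study asked how loss of the autophagy gene Atg16l1 changes epithelium that lacks Rnaseh2b, a subunit of the RNase H2 enzyme that removes ribonucleotides from DNA.

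Organoids of 4 genotypes were sequenced, all untreated and grown in IntestiCult medium. The control, named WT, carries ATG16L1flox/flox_RNaseH2Bflox/flox without Cre (n = 4). Atg16l1 ΔIEC is ATG16L1flox/flox_VillinCre+/- (n = 4), Rnaseh2b ΔIEC is RNaseH2Bflox/flox_VillinCre+/- (n = 2) and Atg16l1/Rnaseh2b ΔIEC is ATG16L1flox/flox_RNaseH2Bflox/flox_VillinCre+/- (n = 4). Every group thus carries floxed alleles, and the Villin promoter drives Cre in epithelial cells, which are the cells such organoids consist of. Of the Rnaseh2b ΔIEC samples, the study left out 2 for their read counts. The labels do not say which libraries share an animal or an organoid line, so p-values measure the spread between these libraries, which may be technical.

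Fatty acids enter oxidation as acyl-CoA, which long-chain acyl-CoA synthetases make. The carnitine shuttle carries the acyl group into mitochondria, where repeated rounds of dehydrogenation, hydration, a further dehydrogenation and thiolysis release acetyl-CoA, and electron transfer flavoprotein passes on the electrons. Peroxisomes run a parallel route for very long-chain fatty acids. PPARα, PPARδ and PPARγ are nuclear receptors for fatty acids that bind DNA with a retinoid X receptor, and in the intestine absorptive enterocytes are the main site of this programme.

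In each library the deleted gene was lower than in every WT library. Atg16l1 lay between 6.74 and 7.35 on the log2 scale in Atg16l1 ΔIEC and between 8.14 and 8.57 in Atg16l1/Rnaseh2b ΔIEC, against 9.43 to 9.54 in WT. Rnaseh2b lay between 7.15 and 7.21 in Rnaseh2b ΔIEC and between 7.68 and 7.92 in Atg16l1/Rnaseh2b ΔIEC, against 8.41 to 8.70 in WT. The single knockouts had lower levels of their target than Atg16l1/Rnaseh2b ΔIEC had, with no overlap between libraries. All 5 epithelial markers (Epcam, Vil1, Cdh1, Krt8 and Krt20) were expressed, while 0 of 5 stromal, 2 of 5 immune and 1 of 3 adipocyte markers passed the limit on low values, and Adipoq had its highest value at -2.12. The library names place WT in lane 1, both single knockouts in lane 2, and 2 Atg16l1/Rnaseh2b ΔIEC libraries in each lane. Libraries 1 and 2 of a genotype deviated together from its mean, as did libraries 3 and 4 (r from 0.41 to 0.86 across genes), and the Rnaseh2b ΔIEC libraries are 1 such pair. Atg16l1/Rnaseh2b ΔIEC is the only genotype in both lanes, and there the lanes coincide with the pairs. A lane covariate thus rests on the difference between those pairs alone.

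In WT organoids many enzymes of mitochondrial oxidation stood among the more abundant transcripts when the level was taken per kilobase of exon. The length merges all annotated exons of a gene, such as 6595 bases for Hadhb, so genes with exons unused here read too low. Acsl5, the synthetase typical of enterocytes, was highest of the 35 at 12.51 on the log2 scale per kilobase, above 99% of tested genes. Acaa2, the last thiolase of the mitochondrial spiral, followed at 11.96 per kilobase and Hadh, the short-chain hydroxyacyl-CoA dehydrogenase, at 11.76. Slc25a20 at 8.07 and Hadhb at 6.79 per kilobase were the lowest of the 17 mitochondrial members, above 66.2% and 42.8% of tested genes. Among the regulators, Creb3l3 reached 8.83 per kilobase, Pparg 8.22, Ppara 7.26, Ppard 6.64 and the coactivator Ppargc1a 6.57, the last above 39.3% of tested genes. Pdk4, a kinase that inhibits pyruvate dehydrogenase and a well-known PPAR target in muscle, was at 3.52 per kilobase, above 11.6% of tested genes. Cyp4a10 was lowest at 1.43 per kilobase, and its log2 values ran only from 2.46 in WT library 4 to 2.82 in Rnaseh2b ΔIEC library 2.

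**Figure D1:**
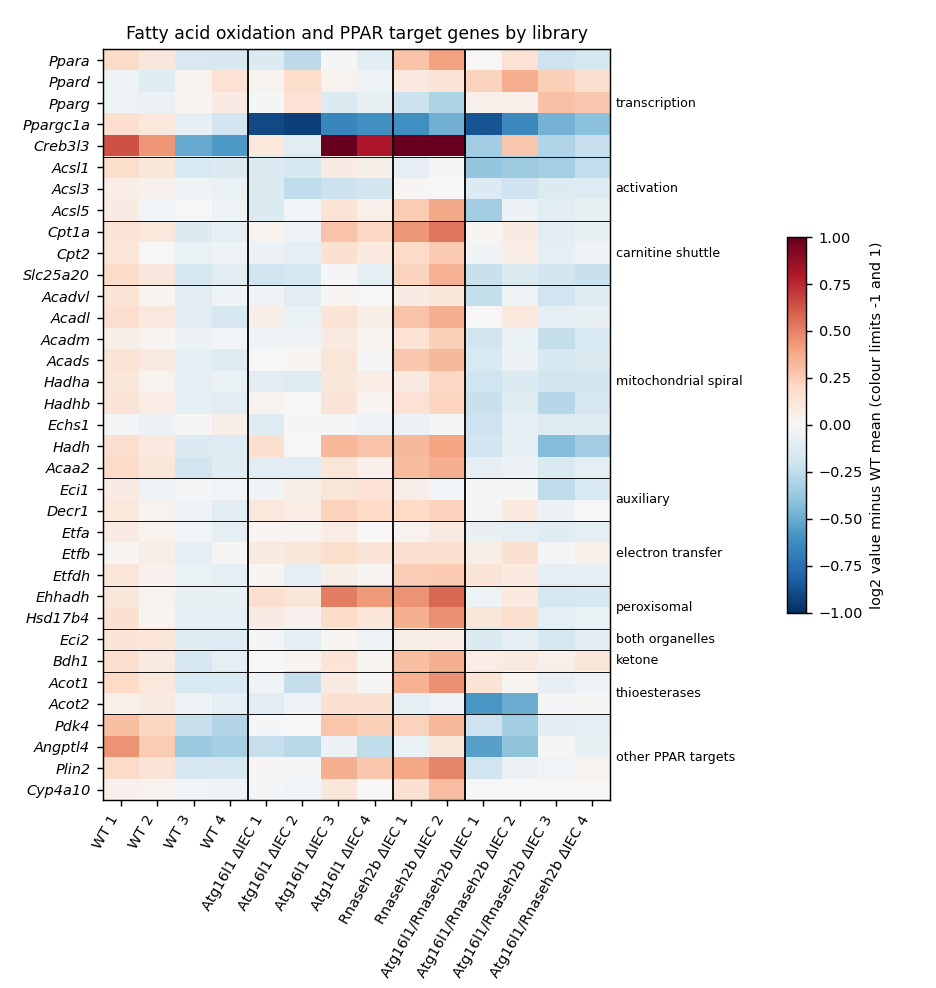
Log2 value minus the WT mean for each of the 35 genes (rows, grouped by role) in each of the 14 libraries (columns), with colours ending at -1 and 1. Most rows are red in both Rnaseh2b ΔIEC libraries and pale to blue in the 4 Atg16l1/Rnaseh2b ΔIEC libraries, and Ppargc1a is blue in every knockout library.

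Since PPAR and RXR bind a direct repeat of the element AGGTCA with 1 base between the copies, promoters were searched on both strands for AGGTCA, any base and AGGTCA again. RefSeq promoters of GRCm38.p6, from 250 bases before to 50 bases after the start site, were given for 30 of the 35 genes. The full repeat was found in 0 of these 30 and in 0.048% of all 27025 genes with a promoter. With at most 2 mismatches it was found in 5 of the 30, namely Creb3l3, Echs1, Etfa, Plin2 and Slc25a20, and in 4.40% of all genes. The element AGGTCA by itself, which every full repeat contains, was found in 7 of the 30 and in 18.1% of all genes. The sites upstream of the start are printed because 3 of their 4 genes differ below between Rnaseh2b ΔIEC and Atg16l1/Rnaseh2b ΔIEC organoids. Each is read 5′ to 3′ along the gene's strand, which is the minus strand of the chromosome in all 4, and capitals mark the match, which lies on the opposite strand for Etfa and Plin2.
Creb3l3, chr10:81092764-81092824: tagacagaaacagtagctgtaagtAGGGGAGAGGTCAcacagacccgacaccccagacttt
Plin2, chr4:86670248-86670308: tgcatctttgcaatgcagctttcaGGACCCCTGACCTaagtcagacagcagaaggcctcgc
Etfa, chr9:55512284-55512344: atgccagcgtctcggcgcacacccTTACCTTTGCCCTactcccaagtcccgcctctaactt
Echs1, chr7:140116468-140116528: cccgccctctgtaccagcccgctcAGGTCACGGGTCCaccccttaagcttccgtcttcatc
The match starts 209 bases before the RefSeq start site in Creb3l3, inside the span that GENCODE gives the gene, 225 in Plin2, 77 in Etfa and 83 in Echs1. A match of this kind is a description of the letters, and binding was not measured here.

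The first comparison asks what loss of Rnaseh2b alone does. Most steps of fatty acid oxidation were higher in Rnaseh2b ΔIEC than in WT organoids. Of 34 genes 21 were called, against 26.7% of all tested genes. They were 19 higher and 2 lower, where 14.4% of all tested genes were called higher and 12.3% lower. The median log2 difference over the 34 genes was 0.22, against 0.00 over all tested genes. The genes called higher spanned the carnitine shuttle, the mitochondrial spiral, the peroxisomal enzymes, the ketone enzyme Bdh1 and the lipid droplet coat Plin2. The 2 called lower were Pparg and Ppargc1a. A call here is a limma adjusted p under 0.05 after Benjamini-Hochberg adjustment over all 12802 genes.

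Among the regulators, Creb3l3 (chromosome 10 of GRCm38, 81084324 to 81098874), a membrane-bound transcription factor of enterocytes and hepatocytes that acts with PPARα, had the largest difference. Its log2 values were 11.06, 10.86, 9.92 and 9.84 in WT and 11.69 and 11.85 in Rnaseh2b ΔIEC. Both Rnaseh2b ΔIEC libraries lay above all WT libraries, among which the first pair was about 1 unit above the second. The log2 difference was 1.35 (SE 0.37, limma adjusted p = 0.016). Ppara (chromosome 15, 85734983 to 85802819), the receptor that drives fatty acid oxidation genes, was at 9.40, 9.32, 9.06 and 9.05 in WT and at 9.49 and 9.61 in Rnaseh2b ΔIEC. These did not overlap, although the gap between the nearest libraries was small, and the difference was 0.34 (SE 0.11, limma adjusted p = 0.043).

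Pparg (chromosome 6, 115360951 to 115490399), the receptor best known from adipocytes and also present in gut epithelium, went the other way, with 9.73, 9.73, 9.81 and 9.87 in WT and 9.57 and 9.47 in Rnaseh2b ΔIEC. The difference was -0.27 (SE 0.09, limma adjusted p = 0.037), and the groups did not overlap. Ppard differed by 0.12 (95% confidence interval -0.05 to 0.28, limma adjusted p = 0.28). Ppargc1a (chromosome 5, 51454250 to 51567726), the PGC-1α coactivator of mitochondrial genes, was at 9.46, 9.40, 9.21 and 9.10 in WT and at 8.67 and 8.81 in Rnaseh2b ΔIEC. It was thus lower in both knockout libraries than in any WT library, by a difference of -0.55 (SE 0.13, limma adjusted p = 0.01), while most enzymes of the pathway were higher.

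**Figure D2:**
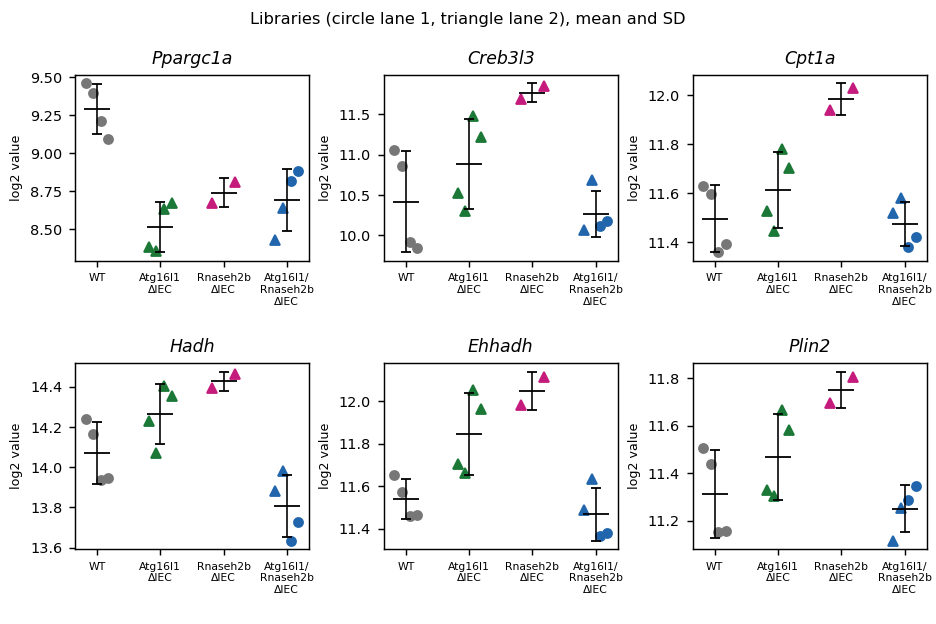
Log2 value (y axis) of 6 genes in each library by genotype, with circles for lane 1, triangles for lane 2, and the mean and SD in black (n = 4, 4, 2 and 4). Creb3l3, Cpt1a, Hadh, Ehhadh and Plin2 are highest on average in Rnaseh2b ΔIEC, and Ppargc1a is highest in WT.

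All 3 genes of the carnitine shuttle were called higher. Cpt1a (chromosome 19, 3322334 to 3385733), which makes acylcarnitine at the outer mitochondrial membrane and is the controlled step of the pathway, had log2 values of 11.63, 11.60, 11.36 and 11.39 in WT and 11.94 and 12.03 in Rnaseh2b ΔIEC. The Rnaseh2b ΔIEC libraries stood clear of the WT libraries, and the difference was 0.49 (SE 0.10, limma adjusted p = 0.0032). Cpt2, which turns acylcarnitine back into acyl-CoA inside the mitochondrion, differed by 0.23 and the carrier Slc25a20 by 0.28. Of the synthetases, Acsl5 was higher by 0.32 (SE 0.09, limma adjusted p = 0.018), while Acsl1 and Acsl3 differed by -0.03 and 0.01 and were not called.

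Within the mitochondrial spiral, 5 of 9 genes were called higher and 0 lower. They were the dehydrogenases for long, medium and short chains, Acadl (0.32), Acadm (0.19) and Acads (0.29), together with Hadh (0.36) and Acaa2 (0.34). Hadh (chromosome 3, 131233419 to 131272101) had log2 values of 14.24, 14.17, 13.94 and 13.94 in WT and 14.40 and 14.46 in Rnaseh2b ΔIEC, without overlap. The trifunctional protein subunits Hadha and Hadhb differed by 0.15 and 0.18, the very long-chain dehydrogenase Acadvl by 0.09 and the hydratase Echs1 by -0.04, and these 4 were not called. Decr1, which handles unsaturated chains, was higher by 0.21, while the isomerase Eci1 differed by 0.01. Of the electron transfer genes, Etfdh (0.26) and Etfb (0.16) were called higher and Etfa (0.06) was not.

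Both peroxisomal members were called higher. Ehhadh (chromosome 16, 21761287 to 21787807), the peroxisomal bifunctional enzyme and a PPARα target, was at 11.66, 11.57, 11.46 and 11.46 in WT and at 11.98 and 12.11 in Rnaseh2b ΔIEC. The groups did not overlap, with a difference of 0.51 (SE 0.11, limma adjusted p = 0.0043). Hsd17b4, the second bifunctional enzyme, was higher by 0.41 (SE 0.08, limma adjusted p = 0.0034). Eci2, an isomerase found in both organelles, differed by 0.06 (limma adjusted p = 0.53). Bdh1, which interconverts acetoacetate and hydroxybutyrate, was higher by 0.33 (SE 0.07, limma adjusted p = 0.0067).

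Among further PPAR targets, Plin2 (chromosome 4, 86648386 to 86670060), which coats lipid droplets, had log2 values of 11.51, 11.44, 11.15 and 11.16 in WT and 11.70 and 11.81 in Rnaseh2b ΔIEC. It was higher by 0.44 (SE 0.12, limma adjusted p = 0.016), without overlap. The cytosolic thioesterase Acot1 was higher by 0.40, whereas its mitochondrial neighbour Acot2 differed by -0.07. Angptl4, a secreted inhibitor of lipoprotein lipase, differed by 0.03 (95% confidence interval -0.42 to 0.47) and Pdk4 by 0.28 (-0.05 to 0.61), and neither was called.

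These calls rest on 2 Rnaseh2b ΔIEC libraries in another lane than WT, and most depended on how lane and pairs were handled. With lane as a covariate, 2 of 34 were called (1504 of 12802 genes overall), namely Acsl5 (0.43) and Acot2 (0.46), and the median was 0.13. Creb3l3 (1.13), Cpt1a (0.34), Ehhadh (0.32), Hadh (0.11), Ppara (0.08) and Plin2 (0.57) kept their sign in that fit without a call (limma adjusted p = 0.21, 0.13, 0.18, 0.67, 0.77 and 0.054), as did Ppargc1a (-0.23, limma adjusted p = 0.40). The count was 3 (728 overall) with the paired libraries treated as correlated, 5 (1135 overall) without Rnaseh2b ΔIEC replicate 1, 2 (1239 overall) without replicate 2, and 14 (2668 overall) without WT replicate 3. With 1 Rnaseh2b ΔIEC library left out, the other is assumed to vary like the other groups.

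The second comparison asks what loss of Atg16l1 adds in epithelium that already lacks Rnaseh2b. Most genes of the pathway were lower when both genes were deleted. Rnaseh2b itself was less reduced with both deletions. It was 0.63 above its level in Rnaseh2b ΔIEC (SE 0.09, limma adjusted p = 0.00074). The part of this weaker loss of Rnaseh2b in the results was not tested. Set against Rnaseh2b ΔIEC, Atg16l1/Rnaseh2b ΔIEC organoids had 26 of 34 genes called, against 25.5% of all tested genes. They were 25 lower and 1 higher, where 14.4% of all tested genes were called lower and 11.1% higher. The median log2 difference was -0.31, against 0.00 over all tested genes. Both comparisons use the same Rnaseh2b ΔIEC libraries, so the values in one are not independent of those in the other.

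Creb3l3 again had the largest difference. Its log2 values in Atg16l1/Rnaseh2b ΔIEC were 10.07, 10.69, 10.12 and 10.18, all more than 1 unit below both Rnaseh2b ΔIEC libraries. The difference was -1.51 (SE 0.37, limma adjusted p = 0.011). Ppara fell by 0.40 (SE 0.11, limma adjusted p = 0.022), with values between 8.996 and 9.35. Pparg was the only member called higher, at 9.83, 9.83, 10.08 and 10.06, above both Rnaseh2b ΔIEC libraries by a mean of 0.43 (SE 0.09, limma adjusted p = 0.0038). Ppargc1a differed by -0.05 (95% confidence interval -0.34 to 0.24) and was at 8.43, 8.64, 8.82 and 8.88, on both sides of the Rnaseh2b ΔIEC values.

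All 3 synthetases and all 3 carnitine shuttle genes were called lower. Acsl5 differed by -0.46, Acsl1 by -0.30 and Acsl3 by -0.16. Cpt1a, at 11.52, 11.58, 11.38 and 11.42, lay below both Rnaseh2b ΔIEC libraries by a mean difference of -0.51 (SE 0.10, limma adjusted p = 0.0029). Slc25a20 differed by -0.48 and Cpt2 by -0.26.

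Of the 9 spiral genes, 8 were called lower, and Echs1 (-0.10, limma adjusted p = 0.11) was not. Hadh showed the largest difference of them, with 13.88, 13.98, 13.63 and 13.73 in Atg16l1/Rnaseh2b ΔIEC, every library below every library of the other 3 genotypes except that library 2 stood above WT libraries 3 and 4. It was lower than in Rnaseh2b ΔIEC by a difference of -0.62 (SE 0.11, limma adjusted p = 0.0022). Acads had log2 values of 11.51 and 11.56 in Rnaseh2b ΔIEC and 11.08, 11.18, 11.08 and 11.10 in Atg16l1/Rnaseh2b ΔIEC. It differed by -0.42 (SE 0.07, limma adjusted p = 0.0013), and Acadm, at 11.78 and 11.87 against 11.45, 11.57, 11.39 and 11.48, by -0.35 (SE 0.05, limma adjusted p = 0.00085). Neither overlapped. The trifunctional subunits Hadha (-0.32) and Hadhb (-0.38), Acaa2 (-0.44), Acadl (-0.34) and Acadvl (-0.25) completed the list.

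The peroxisomal Ehhadh, at 11.49, 11.63, 11.37 and 11.38, differed by -0.58 (SE 0.11, limma adjusted p = 0.0023) and Hsd17b4 by -0.38 (SE 0.08, limma adjusted p = 0.0056). Plin2, at 11.12, 11.26, 11.29 and 11.35, lay below both Rnaseh2b ΔIEC libraries and differed by -0.50 (SE 0.12, limma adjusted p = 0.0087). Pdk4 (-0.47), Acot1 (-0.40), Bdh1 (-0.25), Etfdh (-0.25), Decr1 (-0.21) and Etfa (-0.16) were also called lower. The genes without a call here were Ppard, Ppargc1a, Echs1, Eci1, Etfb, Eci2, Acot2 and Angptl4.

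**Figure D3:**
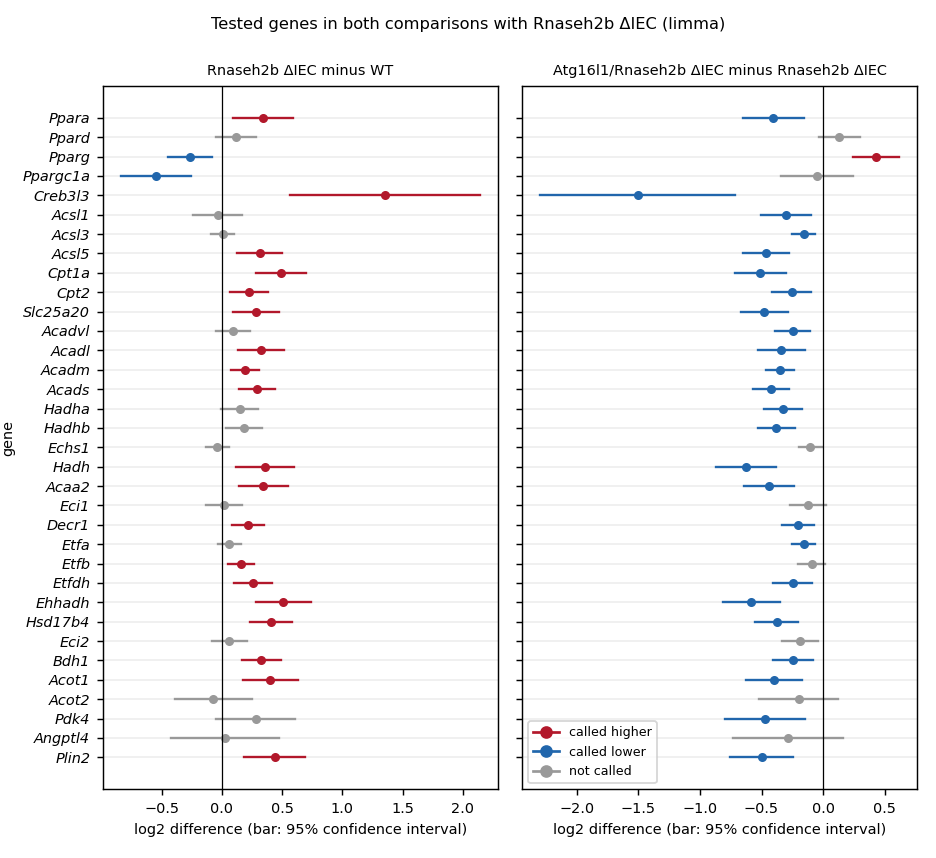
Log2 difference (point) with its 95% confidence interval (bar) for the 34 tested genes in Rnaseh2b ΔIEC against WT (left) and for Atg16l1/Rnaseh2b ΔIEC minus Rnaseh2b ΔIEC (right), from limma, coloured by call. In the left panel 19 genes are called higher and 2 lower, and in the right panel 25 are called lower and 1 higher.

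Lane 2 holds 2 libraries of each of these genotypes, and within it 29 of 34 genes were called (28 lower), with 3697 of 12802 genes called overall. Each genotype is 1 pair there, so these p-values measure the spread within pairs only. With lane as a covariate the count was 20 (3466 overall), with correlated pairs 11 (692 overall), without Rnaseh2b ΔIEC replicate 1 it was 13 (1337 overall), and without replicate 2 it was 3 (757 overall). Acadm, Acads and Hadh kept their call in this comparison under every setting tried except averaging of the pairs and, for Acadm and Acads, a minimum difference of 0.5.

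The single knockouts were both in lane 2 and can be set against each other without the lane. In Rnaseh2b ΔIEC against Atg16l1 ΔIEC organoids 9 of 34 genes were called, against 6.81% of all tested genes. All 9 were higher, where 4.34% of all tested genes were called higher and 2.47% lower, and 1 of 34 was lower at an unadjusted limma p under 0.05. The 9 were Ppara (0.47), Acot1 (0.45), Slc25a20 (0.41), Cpt1a (0.37), Acaa2 (0.36), Hsd17b4 (0.30), Bdh1 (0.28), Acads (0.26) and Acsl3 (0.20). Ppara was at 9.07, 8.94, 9.18 and 9.10 in Atg16l1 ΔIEC, below both Rnaseh2b ΔIEC values of 9.49 and 9.61 (SE 0.11, limma adjusted p = 0.029). Cpt1a was at 11.53, 11.44, 11.78 and 11.70 in Atg16l1 ΔIEC against 11.94 and 12.03 (SE 0.10, limma adjusted p = 0.037). The first pair of Atg16l1 ΔIEC libraries was lower than the second, and neither reached Rnaseh2b ΔIEC. The difference was above 0 for 31 of 34 genes. By limma, 0 of 34 genes were called with correlated pairs (13 at an unadjusted p under 0.05, and 61 of 12802 called overall), without Rnaseh2b ΔIEC replicate 1 (16 unadjusted) or without replicate 2 (10 unadjusted). The count was 2 without Atg16l1 ΔIEC replicate 2 (583 of all 12802) and 3 without replicate 1 (666) or 4 (504).

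Loss of Atg16l1 alone left most of the set close to WT. Of 34 genes 4 were called, against 19.1% of all tested genes, 2 higher and 2 lower against 8.73% and 10.4%, and the median log2 difference was 0.03. Ppargc1a was lower, with 8.39, 8.36, 8.64 and 8.67 against 9.10 to 9.46 in WT, by -0.78 (SE 0.11, limma adjusted p = 0.00048). Every Atg16l1 ΔIEC library lay below every WT library. Acsl3, a synthetase of the endoplasmic reticulum and lipid droplets, was at 11.92, 11.80, 11.84 and 11.87 against 12.12, 12.10, 12.01 and 11.99 in WT and differed by -0.20 (SE 0.04, limma adjusted p = 0.0022). Ehhadh, at 11.70, 11.66, 12.05 and 11.96, was higher by 0.31 (SE 0.09, limma adjusted p = 0.026), and Decr1 by 0.15 (SE 0.05, limma adjusted p = 0.045) with overlap between the groups. Neither Ehhadh nor Decr1 was called without WT replicate 3 or 4 or Atg16l1 ΔIEC replicate 3 or 4. In each of these settings 2 of 34 genes were called (1659 to 2012 of all 12802). WT and Atg16l1 ΔIEC never share a lane. With lane as a covariate Ppargc1a differed by -0.46 and Ehhadh by 0.12, without a call (limma adjusted p = 0.078 and 0.61), and the single gene called was Acot2 (0.58, limma adjusted p = 0.0061).

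Against WT, Atg16l1/Rnaseh2b ΔIEC organoids had 7 of 34 genes called, against 16.1% of all tested genes. They were 6 lower and 1 higher, against 8.01% and 8.1%. The median log2 difference was -0.12. Ppargc1a was lower by a difference of -0.60 (SE 0.11, limma adjusted p = 0.0052), without overlap with WT. Acsl1, the main synthetase of liver and fat, was at 11.41, 11.45, 11.46 and 11.55 against 11.98, 11.91, 11.65 and 11.66 in WT and differed by -0.33 (SE 0.08, limma adjusted p = 0.014). Smaller differences were called for Hadhb (-0.20), Acadm (-0.16), Acsl3 (-0.15) and Echs1 (-0.14). Ppard, the PPAR expressed in crypts, was called higher, at 9.77, 9.91, 9.79 and 9.71 against 9.49, 9.43, 9.58 and 9.69 in WT, by 0.25 (SE 0.06, limma adjusted p = 0.02). Creb3l3 (-0.15), Cpt1a (-0.02), Ehhadh (-0.07) and Plin2 (-0.06), which were called higher in Rnaseh2b ΔIEC, were not called here. The count by limma was 5 within lane 1 (1311 of all 12802) and 0 with correlated pairs (11 at an unadjusted p under 0.05, and 85 of all called). It was 4 without WT replicate 1 (1012 of all), WT replicate 2 (1001) or Atg16l1/Rnaseh2b ΔIEC replicate 1 (1289).

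When Rnaseh2b loss was added to Atg16l1 loss, 9 of 34 genes were called, against 25.1% of all tested genes, 8 lower and 1 higher against 12.5% and 12.6%, and the median log2 difference was -0.11. Hadh differed by -0.46 (SE 0.09, limma adjusted p = 0.0043), from 14.23, 14.07, 14.40 and 14.36 in Atg16l1 ΔIEC, with no overlap. Ehhadh differed by -0.38 (SE 0.09, limma adjusted p = 0.0084), Acsl1 by -0.29, Hadhb by -0.24, Eci1 by -0.18, Acadm by -0.17, Decr1 by -0.14 and Etfa by -0.13. Ppard was higher by 0.20 (limma adjusted p = 0.035). The count was 5 within lane 2 (2073 of all 12802) and 1 with correlated pairs (478 of all). It was 4 without Atg16l1 ΔIEC replicate 3 (1827 of all), 5 without replicate 4 (1832) and 6 without Atg16l1/Rnaseh2b ΔIEC replicate 3 (2570). Hadh was called in all of these settings. Atg16l1 itself was less reduced with both deletions, at 1.46 above its level in Atg16l1 ΔIEC (SE 0.12, limma adjusted p = 1.96e-05). The part of this in the results was not tested.

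The effect of Rnaseh2b loss was then compared with and without Atg16l1, as the difference of the differences. It was called for 22 of 34 genes, against 35.1% of all tested genes. These were 20 negative and 2 positive, where 18.1% of all tested genes were called negative and 17% positive. Negative values mean that Rnaseh2b deletion moved the gene less upward, or further downward, when Atg16l1 was deleted too. Rnaseh2b, which is outside these 34 genes, had a value of 0.55 (SE 0.12, limma adjusted p = 0.0037). Its own fall was thus smaller when Atg16l1 was deleted too, and the part of this was not tested. Creb3l3 had the largest negative value, -1.97 (SE 0.47, limma adjusted p = 0.0065), followed by Ehhadh at -0.89 (SE 0.14, limma adjusted p = 0.00049) and Hadh at -0.82 (SE 0.15, limma adjusted p = 0.0011). The positive values were 0.73 for Ppargc1a and 0.45 for Pparg. Ppargc1a was lower than WT in every knockout, and in Atg16l1/Rnaseh2b ΔIEC it differed from Rnaseh2b ΔIEC by -0.05 and from Atg16l1 ΔIEC by 0.18, neither of them called. With lane as a covariate 3 of 34 genes were called (2580 of 12802 overall), with correlated pairs 10 (1553 overall) and without Rnaseh2b ΔIEC replicate 2 it was 11. Plin2 (-0.66) kept its call in all of these settings.

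In both comparisons with Rnaseh2b ΔIEC described first, mitochondrial and peroxisomal steps were called in the same direction, and the 2 peroxisomal members had the larger medians. In Rnaseh2b ΔIEC against WT, 11 of 17 mitochondrial members were called higher with a median of 0.21, against 2 of 2 peroxisomal members with a median of 0.46. When Atg16l1/Rnaseh2b ΔIEC was set against Rnaseh2b ΔIEC, 14 of 17 and 2 of 2 were called lower, with medians of -0.32 and -0.48. In Atg16l1/Rnaseh2b ΔIEC against WT, 3 of 17 were called lower and 0 of 2, with medians of -0.11 and -0.02 (limma adjusted p = 0.60 for Ehhadh and 0.79 for Hsd17b4). Within each library, the mean of the 17 minus the mean of the 2 lay between -0.12 and -0.08 in WT, -0.32 and -0.21 in Atg16l1 ΔIEC, -0.37 and -0.31 in Rnaseh2b ΔIEC and -0.24 and -0.10 in Atg16l1/Rnaseh2b ΔIEC. Every library of the single knockouts thus had a lower value than every WT library. WT is in lane 1 and the single knockouts are in lane 2, so genotype and lane cannot be told apart here. Atg16l1/Rnaseh2b ΔIEC also split by lane, which coincides with its pairs, at -0.23 and -0.24 in lane 2 and -0.13 and -0.10 in lane 1. These values are not per length, so that their sign says nothing of the levels. With a wider peroxisomal list in place of the 2 members every library of the single knockouts again lay below every WT library, but the single knockouts changed places and the gap in Rnaseh2b ΔIEC was small, with 1.46 to 1.49 in WT (mean 1.47), 1.31 to 1.43 in Atg16l1 ΔIEC (mean 1.37), 1.42 to 1.45 in Rnaseh2b ΔIEC (mean 1.44) and 1.40 to 1.52 in Atg16l1/Rnaseh2b ΔIEC (mean 1.45). These differences were given no test.

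The wider peroxisomal list had 17 genes, of which 16 were tested. In Rnaseh2b ΔIEC against WT, 10 were called higher and 1 lower (14.4% and 12.3% of all tested genes), with a median of 0.30. The thiolase Acaa1b, a close paralogue of Acaa1a with which it may share reads, was higher by 0.91 (SE 0.24, limma adjusted p = 0.015). Acox2, the oxidase for branched chains and bile acid precursors, was the one called lower, by a difference of -0.75 (SE 0.17, limma adjusted p = 0.0074). In Atg16l1/Rnaseh2b ΔIEC against Rnaseh2b ΔIEC, 9 were called lower and Acox2 higher (0.61), where 14.4% of all tested genes were called lower and 11.1% higher. In the interaction 11 were called negative (18.1% of all tested genes), among them Acaa1b (-1.78) and the thioesterase Acot4 (-0.96).

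A list of 16 further genes, mainly for branched-chain, propionyl and carnitine metabolism, was not confined to mitochondrial enzymes. Of these, 6 were called higher and 0 lower in Rnaseh2b ΔIEC against WT (14.4% and 12.3% of all tested genes). In Atg16l1/Rnaseh2b ΔIEC against Rnaseh2b ΔIEC 4 were called lower (14.4% of all). Acad11, an acyl-CoA dehydrogenase, differed by 0.62 (SE 0.13, limma adjusted p = 0.0037) and -0.58, and Crat, carnitine acetyltransferase, by 0.39 and -0.47. The ketone body list had 5 of 6 genes tested. In Rnaseh2b ΔIEC against WT, 2 were called higher and 0 lower (14.4% and 12.3% of all), but only 2 of 5 were above 0 and the median was -0.01. In Atg16l1/Rnaseh2b ΔIEC against Rnaseh2b ΔIEC, 2 were called lower and 0 higher (14.4% and 11.1% of all), with a median of -0.29. The monocarboxylate transporter Slc16a1 differed by 0.26 (SE 0.05, limma adjusted p = 0.0026) and -0.29 (SE 0.05, limma adjusted p = 0.0015) in the same comparisons.

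Of 19 other PPAR targets 12 were tested, and Fabp4, Ucp3, Lpl and Fgf21, which mark fat, muscle or liver, were below the limit. In Rnaseh2b ΔIEC against WT, 6 were called higher and 1 lower (14.4% and 12.3% of all tested genes). The fatty acid binding proteins of enterocytes led them, Fabp1 with 1.34 (SE 0.44, limma adjusted p = 0.038) and Fabp2 with 1.26 (SE 0.17, limma adjusted p = 0.00033). Relative to Rnaseh2b ΔIEC both were lower in Atg16l1/Rnaseh2b ΔIEC, by differences of -1.64 and -1.07. In that comparison 9 of the 12 were called lower and 0 higher (14.4% and 11.1% of all tested genes). Mgll, monoacylglycerol lipase, was lower than WT in Rnaseh2b ΔIEC (-0.61), Atg16l1 ΔIEC (-0.57) and Atg16l1/Rnaseh2b ΔIEC (-1.06), and was chosen for mention after its values were seen.

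Among 15 tested partners of the PPARs, 4 were called higher and 3 lower in Rnaseh2b ΔIEC against WT (14.4% and 12.3% of all tested genes). In Atg16l1/Rnaseh2b ΔIEC against Rnaseh2b ΔIEC 4 were called lower and 3 higher (14.4% and 11.1% of all). Rxra, the retinoid X receptor with which PPARα pairs, differed by 0.31 (SE 0.05, limma adjusted p = 0.00097) and -0.49 (SE 0.05, limma adjusted p = 0.00014) in these comparisons, and by 0.26 in Atg16l1 ΔIEC against WT. Hnf4g, an enterocyte nuclear receptor, differed by 0.55 and -0.67, and Ppargc1b, the paralogue of Ppargc1a, by 0.34 and -0.30.

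Markers of absorptive enterocytes moved with the pathway. In Rnaseh2b ΔIEC against WT 9 of 11 were called higher (median 0.82), where 14.4% of all tested genes were. In Atg16l1/Rnaseh2b ΔIEC against Rnaseh2b ΔIEC 10 of 11 were called lower (median -1.15), where 14.4% of all were. The medians over the 34 genes were 0.22 and -0.31. The mean of the enterocyte markers per library was 12.62 to 13.18 in WT, 12.87 to 13.47 in Atg16l1 ΔIEC, 13.70 to 13.80 in Rnaseh2b ΔIEC and 12.49 to 12.92 in Atg16l1/Rnaseh2b ΔIEC. Within WT, libraries 1 and 2 had both the higher enterocyte mean and the higher mean of the 17 mitochondrial genes, at 0.11 and 0.05 from the WT mean, and libraries 3 and 4 lay at -0.09 and -0.08 from it. In these bulk samples fewer enterocytes and less RNA per enterocyte cannot be told apart, and the part of the enterocyte share in the results was not tested. Goblet cell markers went the other way, with 6 of 6 genes called higher in Atg16l1/Rnaseh2b ΔIEC against Rnaseh2b ΔIEC (median 0.76), against 11.1% of all tested genes. Hypoxia-response genes were called lower in 12 of 15 in Rnaseh2b ΔIEC and 10 of 15 in Atg16l1 ΔIEC against WT (12.3% and 10.4% of all tested genes). They were called higher in 10 of 15 in Atg16l1/Rnaseh2b ΔIEC against Rnaseh2b ΔIEC (11.1% of all). Their mean per library was 12.41 to 12.44 in WT (lane 1). It was 11.62 to 11.74 in Atg16l1 ΔIEC and 11.55 to 11.64 in Rnaseh2b ΔIEC (both lane 2). In Atg16l1/Rnaseh2b ΔIEC it was 11.84 and 12.10 in lane 2 and 12.34 and 12.35 in lane 1. The part of lane was not tested. Adm differed from WT by -1.76 in Rnaseh2b ΔIEC and -1.69 in Atg16l1 ΔIEC, and Hk2 by -1.40 and -1.41, and the part of oxygen supply in the results was not tested.

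**Figure D4:**
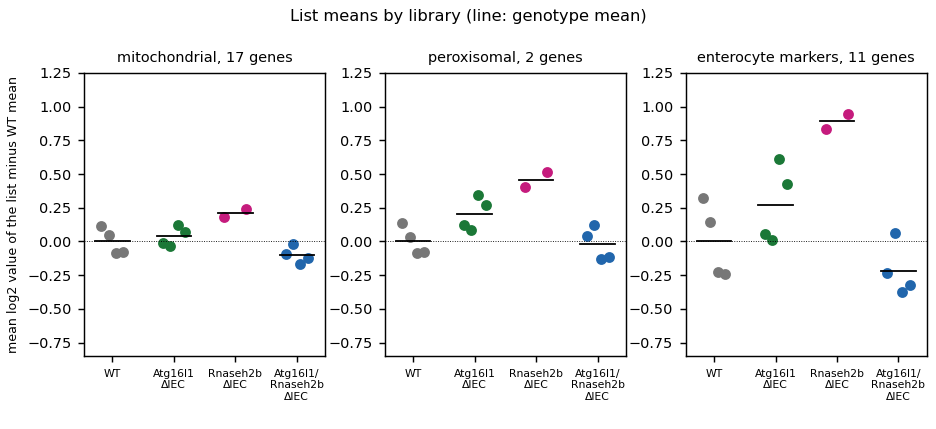
Mean log2 value of each list minus its WT mean (y axis) per library (points) and genotype (line) for 17 mitochondrial genes, 2 peroxisomal genes and 11 enterocyte markers. Both Rnaseh2b ΔIEC libraries are highest for all 3 lists, which differ in size of change, with medians of 0.21, 0.46 and 0.82 in Rnaseh2b ΔIEC against WT.

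Eci2, Acot2 and Angptl4 had no call in the fit of all libraries without lane. Within lane 2, Eci2 (-0.18, limma adjusted p = 0.021) and Angptl4 (-0.50, limma adjusted p = 0.0062) were lower in Atg16l1/Rnaseh2b ΔIEC relative to Rnaseh2b ΔIEC. Both genotypes are 1 pair of libraries there, so these p-values, and that of Acot2 below, measure the spread within pairs. Eci2 was also called without any 1 of the WT libraries. Acot2 split within Atg16l1/Rnaseh2b ΔIEC, with 8.57 and 8.66 in lane 2 and 9.14 and 9.17 in lane 1. Lane and pair coincide there and cannot be told apart. Within lane 2 its level in Atg16l1/Rnaseh2b ΔIEC differed from that in Rnaseh2b ΔIEC by -0.47 (limma adjusted p = 0.0041) and from that in Atg16l1 ΔIEC by -0.58 (limma adjusted p = 0.013). Angptl4 split by pair in WT, with 10.41 and 10.21 against 9.59 and 9.62, a wider gap than its difference within lane 2. Some values may be uncertain because the transcripts share 50-base stretches, the length of the reads, with other genes. Matches to either strand were counted although the libraries are stranded, so the shared part of the reads may be smaller. The shared part was 44.8% in Etfb, 29.8% in Cyp4a10, 27.7% in Acot2, mostly with Acot1, 19.2% in Acot1, mostly with Acot2, 26.9% in Acadvl, with Dvl2, and 19.7% in Hadhb. In Eci2 and Bdh1 it was 11.1%, and in the other members under that.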

How the data were processed

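Small intestinal organoids of 4 genotypes were sequenced as stranded mRNA libraries. Per the submitters' processing notes, the authors used cutadapt, TopHat2 with GRCm38, HTSeq and DESeq2, with versions not given in the sources used here. The authors deposited log2 values for 18781 genes whose transformation is not named. The lowest genes are pulled together, so differences of low genes may be understated, and the depth per library is unknown. All 14 columns were mapped by library name and 0 were left out.

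Symbols and coordinates came from GENCODE M21. A single limma 3.58.1 model (R 4.3.3) with a mean trend was fitted to the 14 libraries for the 12802 genes whose mean reached 10 when unlogged, with Benjamini-Hochberg adjustment at 0.05. It was tested on simulated data in which libraries varied independently, so effects of lane and pairs were not covered. The count model of the study's methods could not be run on log2 values. Named genes are all 35 members and, per pathway list, the 2 largest rises and 2 largest falls called in any comparison, and both targets. Some of these are not reported here. Mgll was named after its values were seen. Members and lists were chosen with earlier results of these data known. Figures were drawn with matplotlib 3.10.9.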

Additional observations from a re-analysis of the deposited data

Results flagged for a closer look

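In 2 of 105 groups of 4 libraries, a single library stood far from the others, where chance flags about 1 in 20. Acsl3 was 11.85 in Atg16l1/Rnaseh2b ΔIEC library 2, with the other 3 at 11.92. Eci1 was 10.68 in WT library 1, with the others between 10.56 and 10.58.

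By the limma interaction test, 22 genes differed in their change with Rnaseh2b deletion between organoids with and without Atg16l1 deletion. Rnaseh2b itself did so too, with a difference of 0.55, and the part of this was not tested. The difference was 0.45 for Pparg and 0.73 for Ppargc1a. Among genes of activation and transport it was -0.47 for Acsl5, -0.63 for Cpt1a, -0.28 for Cpt2 and -0.35 for Slc25a20. In the mitochondrial spiral it was -0.39 for Acadl, -0.36 for Acadm, -0.45 for Acads, -0.31 for Hadha, -0.43 for Hadhb, -0.82 for Hadh and -0.42 for Acaa2. Other mitochondrial genes had -0.36 for Decr1, -0.19 for Etfa and -0.22 for Etfb. For the peroxisomal genes it was -0.89 for Ehhadh and -0.48 for Hsd17b4. The remaining values were -1.97 for Creb3l3, -0.29 for Bdh1, -0.60 for Pdk4 and -0.66 for Plin2.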

How the results depend on the processing

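Of 238 gene-by-comparison values, 98 were called. All 98 kept their call under upper quartile scaling, median scaling and pseudocounts of 1 and 5, and 84 did with no filter on low values. With lane as a covariate 38 did, with the paired libraries correlated 26, and with the pairs averaged 0, a fit that leaves 1 value for Rnaseh2b ΔIEC. For the other losses the cause was not tested. The counts of called genes below run in the order Rnaseh2b ΔIEC, Atg16l1 ΔIEC and Atg16l1/Rnaseh2b ΔIEC against WT, Atg16l1/Rnaseh2b ΔIEC against Rnaseh2b ΔIEC and against Atg16l1 ΔIEC, Rnaseh2b ΔIEC against Atg16l1 ΔIEC, and the interaction. The reported counts were 21, 4, 7, 26, 9, 9 and 22. Leaving out each library in turn gave ranges of 2 to 22, 2 to 5, 4 to 9, 3 to 27, 4 to 11, 0 to 11 and 11 to 26. Over all 12802 genes these ranges were 1135 to 3832, 1659 to 2870, 1001 to 2074, 757 to 3288, 1827 to 3470, 90 to 1105 and 2706 to 4714. With correlated pairs the counts were 3, 1, 0, 11, 1, 0 and 10 (728, 384, 85, 692, 478, 61 and 1553 of all 12802 genes). At a log2 difference over 0.5 the counts were 3, 1, 1, 4, 0, 0 and 7 (535, 173, 175, 640, 345, 180 and 1324 of all). In the comparisons with 0, the genes at an unadjusted limma p under 0.05 numbered 17 and 18, counted at any size of difference. With lane as a covariate the counts were 2, 1, 5, 20, 6, 14 and 3 (1504, 1586, 1418, 3466, 3976, 1622 and 2580 of all). Within 1 lane they were 5, 29 and 5 (1311, 3697 and 2073 of all) for the comparisons of Atg16l1/Rnaseh2b ΔIEC with WT, Rnaseh2b ΔIEC and Atg16l1 ΔIEC. With no filter, Rnaseh2b ΔIEC against Atg16l1 ΔIEC had 4 (780 of all 18781 genes). Acot2 in Rnaseh2b ΔIEC against WT turned from -0.07 to 0.46 with lane as a covariate (limma adjusted p = 0.023). That shift rests on the difference between the pairs of Atg16l1/Rnaseh2b ΔIEC, which coincide with its lanes.

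With the replicate block the counts were 10, 2, 7, 17, 7, 1 and 18 (2890, 2666, 2125, 2994, 3355, 424 and 4484 of all 12802 genes). Same-numbered libraries did not deviate together (r from -0.50 to 0.44), so the numbers do not pair the samples and the block is given for completeness. Depth is unknown, and differences of low genes such as Pdk4 and Cyp4a10 may be understated by the deposited transformation, which is not named.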
